A study of Mus musculus with 29 samples.

Results

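The Schlafen (Slfn) genes of the mouse were followed through naive CD4 T cells, 2 kinds of culture made from them, and Treg cultures with guides against Smad2 or Smad3. The members, taken by their symbol in the deposited expression tables, were Slfn1, Slfn2, Slfn3, Slfn4, Slfn5, Slfn8 and Slfn9. All 7 were found among 54532 gene IDs of the cell-type table and among 55421 of the Smad table. In both tables, 6 of the 7 members reached the level needed for a test (1 CPM, that is 1 read per 1000000 counted reads, in at least 3 cell-type or 2 Smad libraries), and Slfn4 did not. Against Th0 cells, Treg cells held less RNA of Slfn1, Slfn2, Slfn3, Slfn5 and Slfn8, while Slfn9 did not pass the test. Of these calls, that of Slfn5 was lost in 8 and that of Slfn3 in 3 of 16 alternative fits.

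All libraries were 3' tag libraries of splenic CD4 T cells from C57BL/6 mice, in which each read comes from near the end of a polyadenylated transcript. Of 29 samples in the series, 17 RNA libraries were used. Naive cells were not cultured (3 libraries). Th0 cells (3 libraries) had 5 days of culture in IL-2 (15 ng/ml). Treg cells (3 libraries) had the same 5 days and IL-2 with human TGF-beta (hTGFb, 10 ng/ml) added. The Smad experiment used Treg conditions throughout, so TGF-beta was present in its control too, with no guide (control), sgSmad2, sgSmad3 or sgSmad2/3 (2 libraries each). The sources used here do not give how the guides were delivered or how many cells were edited. Whether the libraries of a group are separate animals or cultures is not labelled, and the p-values then describe only how far these libraries spread, which may be technical variation.

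Schlafen proteins form a family known from lymphocytes and myeloid cells, and many of its genes respond to type I interferon. Short members (group I, with Slfn1 and Slfn2) carry the core Schlafen domain, group II (Slfn3 and Slfn4) adds a linker region, and long members (group III, with Slfn5, Slfn8 and Slfn9) carry a helicase-like part as well. Slfn2 is known for keeping resting T cells quiescent and for shielding transfer RNA from cleavage, and several family members bind or cut transfer RNA. Smad2 and Smad3 are the transcription factors that carry the TGF-beta signal to the nucleus.

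The members lie on chromosome 11 (GRCm38.p6) in a cluster of 10 Schlafen entries. This cluster of 344 kb runs from 82942341, the start of Slfn5os, to 83286726, the end of Slfn14, neither of them a member. The members themselves run from 82951349 to 83215154, with Slfn10-ps between Slfn8 and Slfn2. In order along the chromosome they are Slfn5 (ENSMUSG00000054404, 82951349 to 82964850, forward strand), Slfn9 (ENSMUSG00000069793, 82974316 to 82991830, reverse) and Slfn8 (ENSMUSG00000035208, 83002125 to 83020810, reverse). Then come Slfn2 (ENSMUSG00000072620, 83065112 to 83070678, forward), Slfn1 (ENSMUSG00000078763, 83116820 to 83122670, forward), Slfn4 (ENSMUSG00000000204, 83175172 to 83190216, forward) and Slfn3 (ENSMUSG00000018986, 83191330 to 83215154, forward). All 7 are annotated as protein coding. The members are paralogs, so reads shared by similar copies, such as Slfn8 and Slfn9, cannot be assigned with certainty. Slfn5os is annotated on the opposite strand across Slfn5, and whether reads were counted by strand is likewise not given.

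Promoter sequences from RefSeq (GRCm38.p6, 250 bases before to 50 after each start site, 8 windows for the 7 members because Slfn8 has 2 start sites) were read for 6 motifs on both strands. The interferon-stimulated response element core, GAAANNGAAA, occurred in windows of Slfn5, Slfn8 and Slfn9 (3 of 7 members), against 3.44% of 32851 windows of all genes. All 3 are long members. The stretches around these matches are shown because 3 members share this motif, with the match in capitals, each 5′ to 3′ along the gene's own strand. In Slfn5 (chr11:82951907-82951996, forward strand) the match begins at base -155 from the RefSeq start site. In Slfn9 (chr11:82991831-82991915, reverse strand) it begins at -45. In Slfn8 (chr11:83020811-83020898, reverse strand) it begins at -48 from 1 start site and at -136 from the other. Both Slfn9 and Slfn8 have the motif on the opposite strand, so that its reverse complement is printed.
Slfn5: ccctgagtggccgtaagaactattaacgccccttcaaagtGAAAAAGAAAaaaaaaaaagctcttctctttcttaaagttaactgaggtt
Slfn9: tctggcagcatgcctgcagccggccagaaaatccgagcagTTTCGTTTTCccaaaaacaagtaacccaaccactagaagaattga
Slfn8: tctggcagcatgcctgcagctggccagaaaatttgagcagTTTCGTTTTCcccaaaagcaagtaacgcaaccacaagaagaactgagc
Slfn8 and Slfn9 hold the same 10 letters. Their windows were 80.8% identical (252 of 312 aligned columns), while the other 20 pairs of member windows lay between 46.8% and 53.0%. The Smad box GTCT occurred in all 7 members and in 88.0% of all windows, so its presence does not set the members apart. The doubled Smad box GTCTAGAC (0.213% of all windows), the gamma-activated site TTCNNNGAA (8.3%) and the forkhead core GTAAACA (3.65%) had no match in the members' windows. The AP-1 site TGANTCA (7.81%) had 1, in Slfn4. A match is a run of letters and does not show that a factor binds there.

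In the libraries of naive, Th0 and Treg cells, which held 797612 to 1551478 reads, levels are CPM with no correction for gene length, which 3' tags do not need in the way whole-transcript reads do. They are therefore compared between groups for each gene and not between genes. A count of 0 in the shallowest library allows up to 3 reads, or 3.76 CPM, for counting error alone. The T cell markers Cd3e (321 to 548 CPM as group means) and Cd4 (191 to 324) were present throughout. Foxp3, which defines Treg cells, had 87.8 ± 4.56 CPM (SD, n = 3) in naive libraries, 10.4 ± 2.92 in Th0 and 179 ± 36.2 in Treg. The naive libraries also held RNA of other blood cells. Their summed CPM was 23.4 to 177 for 9 B cell markers (all 9 present), 24.5 to 100 for 10 myeloid markers (9 present, Itgam at 0) and 497 to 1170 for 6 red cell markers (all 6 present). In Th0 and Treg the sums were at most 9.99, 3.23 and 5.55, and the defining markers Blk, Lyz2, Cd14, Csf1r and Hba-a2 were at 0 in both. For 8 markers of gamma-delta, CD8 and NK cells the sum, but not each marker, ran the other way. It was 67.8 to 80.2 CPM in naive, 79.6 to 141 in Th0 and 113 to 304 in Treg libraries. Against naive cells, limma called 2 of these 8 markers higher and 4 lower in Treg, where Ncr1 and Klrb1c were at 0. In Th0 it called 2 higher and 3 lower. The part of these cells in the differences between groups was not tested. In bulk RNA, fewer cells that express a gene and less RNA per cell cannot be told apart.

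Slfn2, the quiescence factor, was highest in naive cells and lowest in Treg. Its level was 359, 399 and 335 CPM in the 3 naive libraries, 268, 247 and 285 in Th0 and 154, 160 and 148 in Treg. The groups did not overlap, and every step in the order naive, Th0, Treg passed the test. Among all genes tested, libraries did not overlap, in either direction, for 21.2% in Treg against Th0. That share was 48.1% in Treg against naive and 48.4% in Th0 against naive. These shares are the background for every statement on overlap of a member's cell-type libraries below. From Th0 to Treg, Slfn2 was 1.73-fold lower (log2 change -0.79 with SE 0.099, limma adjusted p = 2.4e-05) and 2.35-fold lower than in naive cells (log2 change -1.23, limma adjusted p = 6.1e-09). Th0 stood 1.36-fold below naive cells (-0.45, SE 0.099, limma adjusted p = 0.0012). All log2 changes here are differences of log2(CPM + 1), a scale on which changes of sparsely read genes come out too small.

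Slfn1, the other short member, which is known for slowing the growth of T cells, had a different order. It was highest in Th0. Its level was 193, 166 and 175 CPM in naive cells, 283, 267 and 301 in Th0, and 95.8, 67.0 and 65.6 in Treg. No library of a group overlapped another group. Slfn1 was 1.59-fold higher in Th0 than in naive cells (log2 change 0.67, SE 0.134, limma adjusted p = 0.00046). In Treg it was 3.74-fold lower than in Th0 (-1.90 with SE 0.134, limma adjusted p = 2.7e-08) and 2.35-fold lower than in naive cells (-1.23, limma adjusted p = 4e-07). The level of Slfn1 as a ratio to Slfn2 was 0.416 to 0.538 in naive, 1.06 to 1.08 in Th0 and 0.419 to 0.622 in Treg libraries. The Th0 ratios lay above all others. An exact two-sided permutation test gave p = 0.1 for Th0 against either group, the smallest that 3 against 3 libraries allow (0.12 after Benjamini-Hochberg adjustment over 6 ratio comparisons), and p = 1.0 for Treg against naive.

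Slfn3 and Slfn4 make up group II. Slfn3, known from the differentiation of the gut epithelium, was read few times, and it was highest in Th0. It had 24.4, 17.8 and 18.4 CPM in Th0 (23, 16 and 15 reads) against 3.76, 6.19 and 3.51 in naive cells (3, 5 and 3 reads). In Treg it had 1.08, 4.51 and 7.84 CPM (1, 7 and 8 reads). The Th0 libraries did not overlap the others, while naive and Treg libraries did overlap. Slfn3 was 3.91-fold higher in Th0 than in naive cells (log2 change 1.97 with SE 0.493, limma adjusted p = 0.0032) and 4.50-fold lower in Treg than there (-2.17 with SE 0.493, limma adjusted p = 0.01). Treg against naive gave -0.20 (95% interval -1.24 to 0.83, limma adjusted p = 0.78). The call between Treg and Th0 was lost without Th0 replicate 1 (adjusted p = 0.058), without Treg replicate 1 (-1.59, 0.056) and without the intensity trend (0.055), in a limma, edgeR and DESeq2 range of 0.00013 to 0.058 over 16 alternatives.

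Slfn4, known from macrophages and other myeloid cells, had 0 reads in 8 of the 9 libraries and 1 read in Treg replicate 2 (0.645 CPM). It was at 0 in the naive libraries too, beside the myeloid marker sum of 24.5 to 100 CPM given above. At this depth no level of Slfn4 above the 3-read floor was detected in any group.

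Slfn5, a long member known as an interferon-inducible gene, showed the steepest fall from naive cells of the 6 tested members. Its level was 80.2, 108 and 92.3 CPM in naive cells, 17.0, 14.4 and 28.2 in Th0, and 5.38, 9.67 and 11.8 in Treg. Naive libraries stood far above both cultures, and the lowest Th0 library lay just above the highest Treg library. Slfn5 was 4.67-fold lower in Th0 than in naive cells (log2 change -2.22 with SE 0.292, limma adjusted p = 4.4e-06) and 9.83-fold lower in Treg than in naive cells (-3.30, limma adjusted p = 2.5e-08). Between Treg and Th0 it was 2.10-fold lower in Treg (-1.07, SE 0.292, limma adjusted p = 0.035). That last call was lost in 8 of 16 alternatives: without Th0 replicate 1 (limma adjusted p = 0.062), Th0 replicate 3 (0.19), Treg replicate 1 (0.17) or Treg replicate 2 (0.067), with a pseudocount of 0.1 CPM (0.071), with quantile scaling (0.063), without the trend (0.15) and with DESeq2 (0.082).

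Slfn8 and Slfn9, neighbours on the reverse strand with like promoter windows, had different orders of their group means. Slfn8 had 117, 126 and 122 CPM in naive cells, 111, 97.6 and 115 in Th0 and 56.0, 46.4 and 55.8 in Treg. The naive libraries lay just above those of Th0, and all Treg libraries lay well below both. From Th0 to Treg, Slfn8 was 2.03-fold lower (log2 change -1.02 with SE 0.133, limma adjusted p = 3.9e-05) and 2.29-fold lower than in naive cells (log2 change -1.19, limma adjusted p = 5.8e-07). Th0 against naive did not pass (-0.17, 95% interval -0.45 to 0.11, limma adjusted p = 0.33).

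Slfn9 was the member with its lowest level in naive cells and no call between the cultures. It had 8.78, 1.24 and 9.35 CPM in naive cells (7, 1 and 8 reads), 35.0, 52.2 and 36.7 in Th0 and 44.1, 46.4 and 44.1 in Treg. The naive libraries lay below all others, and the Treg libraries lay within the range of Th0. Against naive cells Slfn9 was 6.83-fold higher in Th0 (log2 change 2.77 with SE 0.417, limma adjusted p = 2.2e-05). The rise in Treg was 7.52-fold (2.91 with SE 0.417, limma adjusted p = 1.3e-05). Without naive replicate 2, the library with 1 read, these log2 changes were 2.05 and 2.19. Treg against Th0 gave 0.14 (95% interval -0.73 to 1.01, limma adjusted p = 0.93). The ratio of Slfn8 to Slfn9 was 13.3, 102 and 13 in naive, 3.18, 1.87 and 3.13 in Th0 and 1.27, 1 and 1.27 in Treg libraries, with no overlap between groups (exact two-sided permutation p = 0.1 for each pair of groups, the smallest possible, adjusted p = 0.12).

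**Figure D1:**
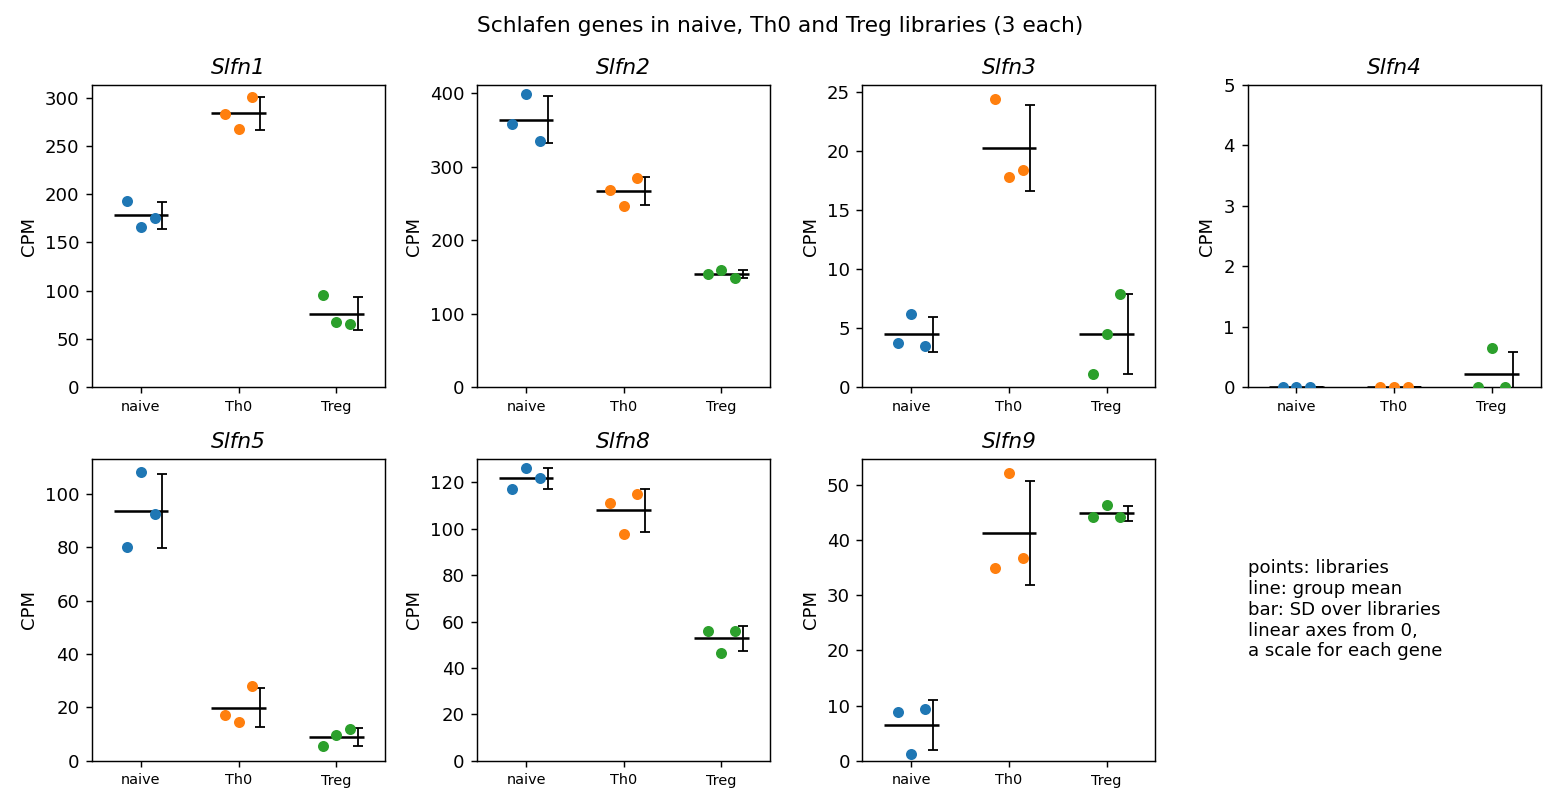
Level of each Schlafen gene (CPM, linear axis from 0 with its own scale) in the 3 libraries of naive, Th0 and Treg cells. Points are libraries, lines are group means and bars are SD. Treg libraries lie lowest for Slfn1, Slfn2, Slfn5 and Slfn8, Th0 libraries highest for Slfn1 and Slfn3, and naive libraries lowest for Slfn9.

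Counted together, 5 of 6 tested members were lower in Treg than in Th0 (Slfn1, Slfn2, Slfn3, Slfn5 and Slfn8) and 0 were higher. Over all 14165 genes tested, 5.44% passed in this comparison, and 2.45% passed as lower in Treg. The count of members was 3 without Th0 replicate 1, without Treg replicate 1 or without the trend, and the genes called fell from 770 to 503 without Treg replicate 2. Against naive cells, 4 members were lower in Treg (Slfn1, Slfn2, Slfn5 and Slfn8) and 1 was higher (Slfn9), where 39.9% of all genes passed. In Th0 against naive cells 3 members were higher (Slfn1, Slfn3 and Slfn9) and 2 lower (Slfn2 and Slfn5), with 41.9% of all genes passing. A share of 5 in 6 members stands further from the background between Treg and Th0 than in the comparisons with naive cells, and the 3 comparisons share libraries. The summed level of the 7 members was 738 to 807 CPM in naive, 697 to 785 in Th0 and 333 to 356 in Treg libraries. The sums of naive and Th0 libraries thus overlapped, and those of Treg libraries lay below both. Slfn1 and Slfn2 had the highest means of the 7 in each group, so the sum mostly follows them and does not show the course of Slfn3 or Slfn9.

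**Figure D2:**
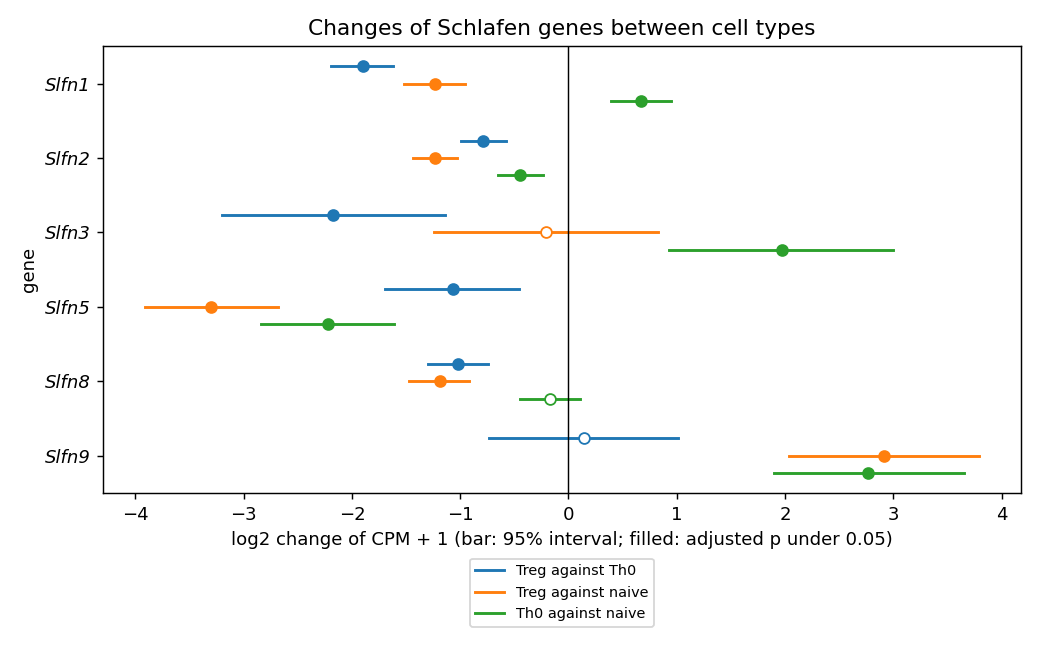
Log2 change of CPM + 1 for the 6 tested Schlafen genes in the 3 comparisons of the cell-type experiment, with 95% intervals. Filled points have a limma adjusted p under 0.05: in Treg against Th0 the intervals of 5 genes lie below 0 and that of Slfn9 spans it.

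Family loci outside the chosen members were read as well. Slfn10-ps, a pseudogene between Slfn8 and Slfn2, had 45.3 ± 8.83 CPM in naive, 49.9 ± 4.28 in Th0 and 59.8 ± 2.38 in Treg libraries (SD, n = 3), and no comparison passed (Treg against naive 0.41, limma adjusted p = 0.066). Slfn14 had 1 read in 1 naive and 1 in 1 Treg library, and Slfnl1 had 0 in all 9. Of 21 other genes within 150 kb of the cluster 12 were tested. Between Treg and Th0 limma called 0 of these 12, against 5 of 6 members. The gene AI662270, which lies within the cluster beside Slfn3, had 33.8 CPM in naive, 98.9 in Th0 and 70.4 in Treg cells. It was higher in Th0 (log2 change 1.51, limma adjusted p = 1.8e-07) and in Treg (1.03, adjusted p = 2.4e-05) than in naive cells. Nle1, on the other side, was lower in Treg than in naive cells (-1.17, limma adjusted p = 0.0062). These genes were named after their values were seen.

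**Figure D3:**
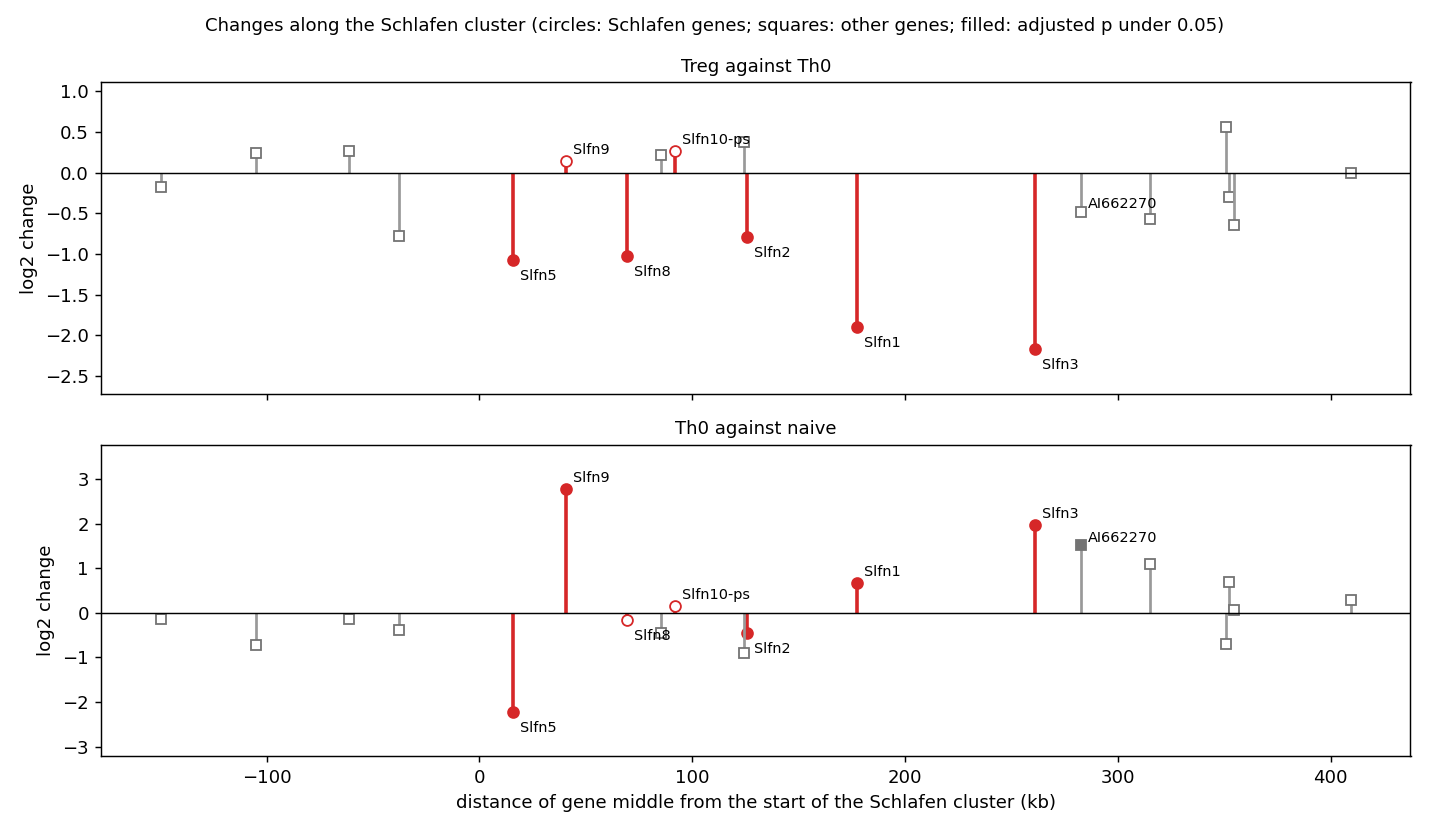
Log2 change of CPM + 1 for genes along the Schlafen cluster, plotted by the distance of the gene's middle from the cluster's start (kb), for Treg against Th0 (top) and Th0 against naive (bottom). Circles are Schlafen genes, squares other genes, and filled symbols have a limma adjusted p under 0.05. In Treg against Th0 the 5 filled symbols are all Schlafen genes below 0, among neighbours with open symbols.

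Because Schlafen genes are known to respond to interferon, the signalling genes and other interferon-stimulated genes were read beside them. Of 17 signalling genes, 3 were higher in Treg than in Th0 and 2 lower. Higher were the interferon-gamma receptor chain Ifngr2 (43.7 ± 2.08 against 10.1 ± 1.54 CPM, SD, n = 3, log2 change 2.02), the transcription factor Irf8 (281 ± 77.0 against 102 ± 17.7, 1.43) and the kinase Jak1 (0.43). Lower were Irf7 (16.7 ± 1.65 against 74.4 ± 1.38, -2.09), the transcription factor that amplifies the interferon response, and Usp18 (11.9 ± 4.63 against 49.9 ± 10.6, -2.02), a feedback inhibitor. Of 30 tested interferon-stimulated genes 26 were lower in Treg and 0 higher, with a median log2 change of -1.65 against -0.01 over all genes. They included Ifi44 (-4.17) and the oligoadenylate synthetase family genes Oasl2 (-4.00) and Oas2 (-3.90). Against naive cells 22 of the 30 were higher in Th0, led by Ifi44 (4.78), Oas3 (4.29) and Oasl2 (4.01), and 1 was lower, the nuclear body protein Sp100 (-0.67). In Treg against naive cells 8 were higher, with the kinase Eif2ak2 at 3.08, and 8 lower, with Rsad2 listed at 0 in all 3 Treg libraries. In the order of their levels over the groups, Slfn1 and Slfn3 were highest in Th0 as Ifi44 and Oasl2 were. Slfn2, Slfn5 and Slfn8 had their highest mean in naive cells, unlike the 22 listed genes called higher in Th0 than there. Sp100, the 1 called lower, had that order too (559 ± 47.5, 350 ± 21.6 and 245 ± 10.6 CPM in naive, Th0 and Treg).

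Since Slfn2 is known as a quiescence factor, 16 other quiescence genes were read. All 16 were lower in Th0 and all 16 lower in Treg than in naive cells, with median log2 changes of -2 and -1.69 against 0.08 over all genes in each. Btg1, which restrains growth, fell by 3.94 in Th0 and the transcription factor Tcf7 fell by 3.53 in Treg, while Slfn2 fell by 0.45 in Th0 and fell by 1.23 in Treg. Between Treg and Th0 the list split, with 6 higher, including the transcription factor Klf2 (497 ± 91.4 against 196 ± 44.6 CPM, SD, n = 3, log2 change 1.35) and the egress receptor S1pr1 (0.73), and 2 lower. Among the lower was Tcf7 (-0.67), the same direction as Slfn2. Of 10 tested genes for cleavage or protection of transfer RNA, limma called 0 between Treg and Th0, and 0 had an unadjusted p under 0.05. In each culture 4 of the 10 were higher than in naive cells, a share near that of all genes called there (39.9% in Treg and 41.9% in Th0, both directions). They were Nsun2, a transfer RNA methyltransferase (131 ± 7.17 CPM in Th0, 111 ± 5.85 in Treg and 49.9 ± 5.48 in naive), the ligase subunit Rtcb, the splicing endonuclease subunit Tsen34 and the ribonuclease inhibitor Rnh1.

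Genes whose levels followed a member most closely over the 9 cell-type libraries were found by Pearson's r of log2(CPM + 1), for the 5 members with a mean of at least 10 CPM. These libraries fall into 3 groups, so r follows the group means and is given as a description. Nearest to Slfn1 were the surface peptidase Dpp4 (0.984), the integrin chain Itgb3 (0.974) and the phosphodiesterase Pde3b (0.972). Nearest to Slfn2 were the chromatin organiser Satb1 (0.99; 1400 CPM in naive, 908 in Th0 and 356 in Treg), Klf6 (0.988) and Gm37248 (0.988). Slfn5 had the phosphatase Ptprc, known as CD45 (0.988), Arhgap15 (0.987) and the kinase Hipk1 (0.984). Slfn8 had Ms4a6b (0.983) and the guanylate-binding protein Gbp9 (0.982). Slfn9 was followed by Kctd17 (0.989), the mitotic kinesin Kif22 (0.986; 3.20 CPM in naive, 106 in Th0 and 117 in Treg) and Mxd3 (0.986). In the 8 Smad libraries, which did not enter the choice, r of these 15 pairs ran from -0.747 (Ptprc with Slfn5) to 0.715 (Itgb3 with Slfn1). Among members, Slfn2 and Slfn8 had the highest r (0.953) and Slfn5 and Slfn9 the lowest (-0.881).

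The Smad experiment (1294583 to 1602297 reads per library) was compared within its own table, whose values, taken as CPM, were rounded to whole numbers. Smad2 had 37 and 29 CPM in the control, 12 and 24 with sgSmad2 and 13 and 18 with sgSmad2/3, below the control in all 4 libraries. Smad3 had 30 and 34 CPM in the control, 26 and 25 with sgSmad3, 44 and 56 with sgSmad2, and 41 and 37 with sgSmad2/3. The sgSmad2/3 libraries lay above the control and below the sgSmad2 libraries. A guide cuts DNA and need not lower a 3' tag, so these levels check the labels only in part. Side by side with the Treg libraries of the other table, and with no test because the tables were scaled separately, the 2 control libraries had Slfn8 at 28 and 25 CPM against 46.4 to 56.0 there, Slfn1 at 56 and 59 against 65.6 to 95.8, and Slfn9 at 30 and 40 against 44.1 to 46.4. Higher than there were Slfn2 (216 and 163 against 148 to 160) and Slfn5 (21 and 18 against 5.38 to 11.8). The control levels of Slfn5 lay within the range of the Th0 libraries (14.4 to 28.2). Slfn3 overlapped (9 and 5 against 1.08 to 7.84). Slfn4 was listed at 0 in all 8 Smad libraries.

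No member passed a test for any guide. By limma the number of members called was 0 of 6 in each of sgSmad2, sgSmad3 and sgSmad2/3 against the control, in all libraries with a Smad3 guide against all without, and in the departure of sgSmad2/3 from what sgSmad2 and sgSmad3 add up to. Each of these called 0 of 18347 genes, or 0%. At an unadjusted p under 0.05 there were 1006 genes for sgSmad2 (5.48%), 1842 for sgSmad3 (10.0%), 1795 for sgSmad2/3 (9.78%), 2355 for the Smad3 guide (12.8%) and 1051 for the departure (5.73%). Among members this looser mark was met by Slfn1 for sgSmad2/3, by Slfn1 and Slfn5 for the Smad3 guide, and by none for sgSmad2, sgSmad3 or the departure. With 2 libraries in a group, an estimate for a single guide had an SE of 0.14 to 0.42 on the log2 scale.

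Slfn1, the member with the largest fall between Th0 and Treg among those well covered by reads, had 56 and 59 CPM in the control, 67 and 66 with sgSmad2, 113 and 62 with sgSmad3, and 100 and 94 with sgSmad2/3. All 6 libraries with a guide lay above both control libraries, and the 2 sgSmad3 libraries lay far apart. Taken singly, a guide group was separate from the control, in either direction, in 19.0% of all genes for sgSmad2, 28.2% for sgSmad3 and 29.8% for sgSmad2/3. No share was computed for all guide groups lying above the control at once. These comparisons share the same 2 control libraries. The log2 change was 0.74 for sgSmad2/3 (SE 0.269, limma adjusted p = 0.45), 0.54 for sgSmad3 (95% interval -0.13 to 1.20, adjusted p = 0.59) and 0.21 for sgSmad2. The sgSmad3 value was 0.11 without sgSmad3 replicate 1 and 0.96 without sgSmad3 replicate 2. Over both groups with a Smad3 guide it was 0.54 (95% interval 0.06 to 1.01, limma adjusted p = 0.32), and the groups with and without that guide overlapped through 1 sgSmad3 library at 62 CPM. Without sgSmad3 replicate 1 this value was 0.32.

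Slfn5 had 21 and 18 CPM in the control, 30 and 18 with sgSmad2, 14 and 12 with sgSmad3, and 17 and 13 with sgSmad2/3. All 4 libraries with a Smad3 guide lay below the 4 without, which was so for 4.57% of all genes in either direction. The log2 change over the Smad3 guide was -0.58 (95% interval -1.08 to -0.08, limma adjusted p = 0.31). Of the sets of cell markers, the myeloid, red cell and T cell sums were separate with and without the Smad3 guide. The summed CPM of 10 myeloid markers was 0 to 8 without it and 11 to 73 with it, where Cd14 and Itgam were at 0 in every library. The sum of 6 red cell markers was 13 to 26 without it and 33 to 144 with it, and that of 8 T cell markers was 3260 to 4260 without and 4490 to 4970 with it. Other sums overlapped, at 2 to 6 CPM without and 3 to 8 with the guide for B cell markers. Platelet markers had 1 to 5 without and 2 to 3 with it. Markers of gamma-delta, CD8 and NK cells had 87 to 109 without and 94 to 119 with it. The part of any of these cells in the values of Slfn1 and Slfn5 was not tested.

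For Slfn2, Slfn3, Slfn8 and Slfn9 the intervals of all guide comparisons spanned 0. Slfn2 had 216 and 163 CPM in the control, 212 and 200 with sgSmad2, 159 and 218 with sgSmad3, and 194 and 209 with sgSmad2/3. Its groups overlapped, and its log2 changes for the 3 guides were 0.13, -0.01 and 0.10 (95% interval -0.39 to 0.59 for sgSmad2/3). Slfn8 had 28 and 25 CPM in the control, 29 and 25 with sgSmad2, 34 and 31 with sgSmad3, and 29 and 27 with sgSmad2/3. For Slfn8 the sgSmad3 libraries lay above the control, as in the share of genes given above (log2 change 0.29, 95% interval -0.06 to 0.63, limma adjusted p = 0.59). Slfn9 had 30 and 40, 44 and 25, 39 and 33, and 29 and 34 CPM in the same order of groups, all overlapping, with log2 changes of -0.06, 0.05 and -0.14. Slfn3, with 9 and 5, 6 and 7, 16 and 10, and 13 and 7 CPM, likewise had its sgSmad3 libraries above the control, with a log2 change of 0.82 (95% interval -0.23 to 1.87, limma adjusted p = 0.60). Departures of sgSmad2/3 from the added single guides ran from -0.32 (Slfn3) to 0.00 (Slfn1) over the 6 members, each with an interval that spans 0. The summed level of the family was 310 to 388 CPM over the 8 libraries.

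**Figure D4:**
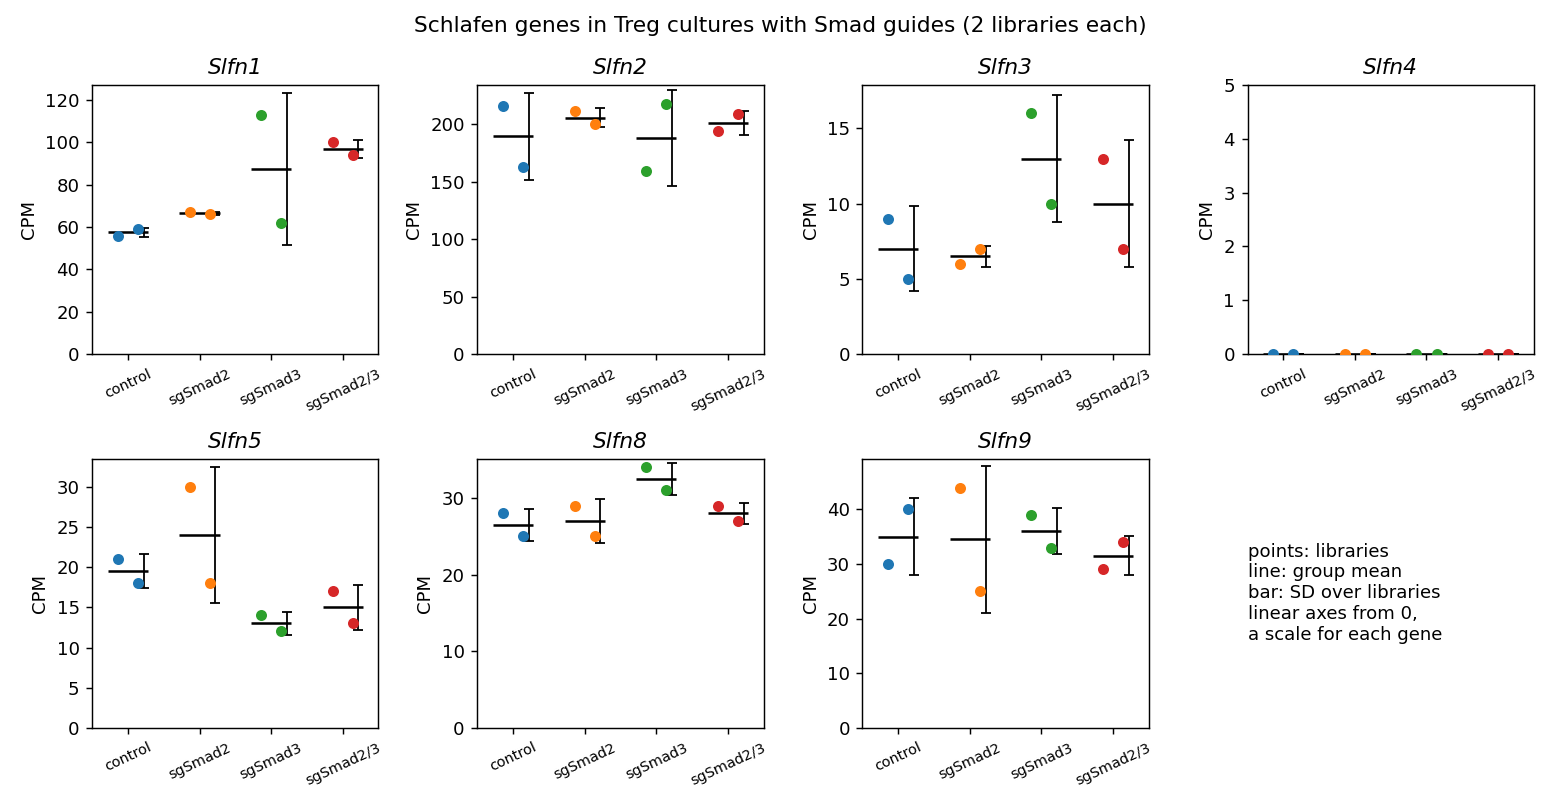
Level of each Schlafen gene (CPM, linear axis from 0 with its own scale) in Treg cultures without a guide and with sgSmad2, sgSmad3 or sgSmad2/3, 2 libraries each. Points are libraries, lines are means and bars are SD. The sgSmad2/3 libraries of Slfn1 (100 and 94) lie above the control (56 and 59), and the Smad3 guide libraries of Slfn5 (12 to 17) lie below the others (18 to 30).

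**Figure D5:**
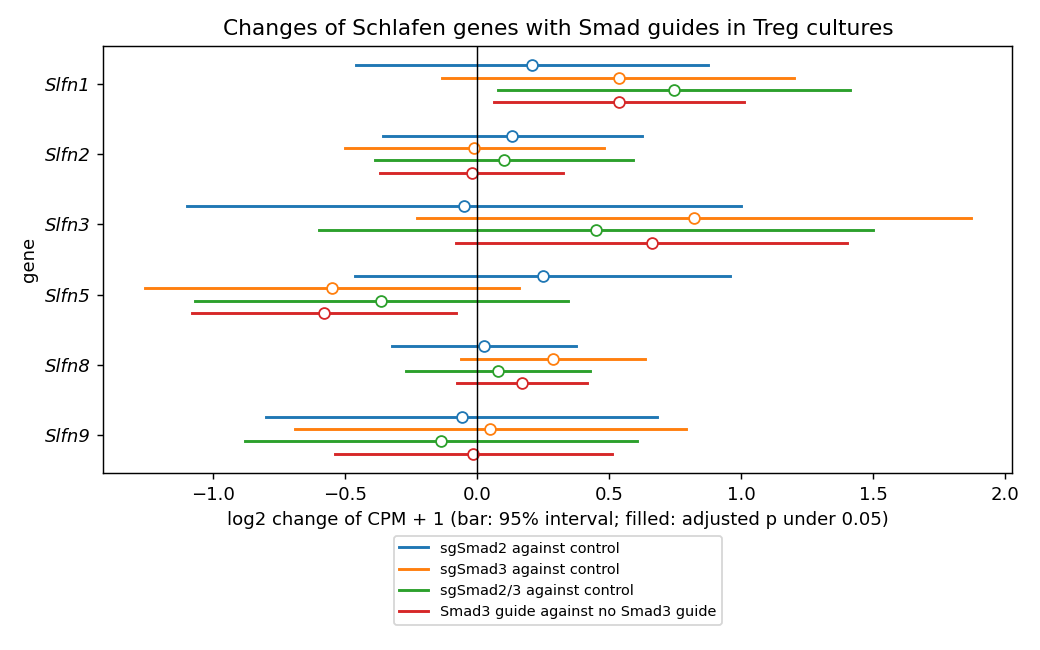
Log2 change of CPM + 1 with 95% intervals for the 6 tested Schlafen genes in 4 guide comparisons. No point is filled, since no limma adjusted p is under 0.05. The intervals of Slfn1 for sgSmad2/3 and the Smad3 guide, and of Slfn5 for the Smad3 guide, lie to 1 side of 0 before adjustment.

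The other lists were read in the guide comparisons too, and limma called 0 genes of each. For the Smad3 guide, 12.8% of all genes had an unadjusted limma p under 0.05. Of the 30 tested interferon-stimulated genes 6 did, with a list median of 0.09 against 0.00 over all genes. These genes split in direction. Ifih1 (-0.60) and Trim30a (-0.26) were lower, while Mx1, Oasl1, Bst2 and Ifit3 were higher. Mx1, Oasl1 and Ifit3 had group means of at most 3 CPM, near the rounding step. The counts for the same comparison were 1 of 17 interferon signalling genes, 1 of 16 quiescence genes and 1 of 11 transfer RNA genes.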

How the data were processed

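Gene expression was measured by QuantSeq 3' FWD sequencing, per the labels' protocols. The build mm10 and the tools Subread 2.0.1, STAR 2.7.9a, deepTools and Bowtie2 are listed, without roles, per the submitters' processing notes. The strand setting and annotation version are not given in the sources. For the cell types the authors deposited CPM (100% of values were whole reads within a tolerance of 0.01). For the Smad guides they deposited CPM that had been rounded, treated here as a score. An unnamed last line, holding the worth of 1 read, was left out. The planned design took both for CPM, and the test was kept. Gm42418 took 4.81% to 11.4% of a library.

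Genes at 1 CPM or more in at least 3 cell-type (14165 genes) or 2 Smad libraries (18347) were fitted with limma 3.58.1 (R 4.3.3) on log2(CPM + 1), using an intensity trend and 1 fit per table. The p-values are two-sided and were adjusted by Benjamini and Hochberg over all genes tested, with a threshold of 0.05. Alternatives were other pseudocounts, no filter, TMM and quantile scaling, CPM without Gm42418, no trend, a replicate block, each replicate left out, and edgeR 4.0.16 and DESeq2 1.42.0 on reads recovered from the cell-type CPM. Floors from read counts cover counting error only, and 95% intervals are those of limma. Replicate pairs differed beyond sampling noise (chi-square per degree of freedom of 1.43 to 2.27 in the cell-type table), so each library counted once.

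All members are named. Further genes are the 3 with the highest r to each member of at least 10 CPM, and of each list those called where 5 or fewer passed, otherwise up to the 3 largest changes in each direction. Some genes that this rule names are not reported here. Members and lists were chosen with earlier results of these data known. Promoter windows were aligned with Biopython 1.88. The 4 Acsbg1 RNA and 8 ATAC libraries were not used here.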

Additional observations from a re-analysis of the deposited data

How the results depend on the processing

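In the cell-type experiment 275 of 288 alternative values of the members kept their direction and their side of the threshold. The 11 calls lost were those of Slfn3 and Slfn5 between Treg and Th0, given above. Treg against naive for Slfn3, which had no call, ran from -0.67 to 0.38 when 1 library was left out and changed sign there. Between Treg and Th0 the members called fell from 5 to 3 without the trend and were 3 to 5 with a library left out. The genes called, 770, became 453 without the trend and 503 to 642 with a library left out (503 without Treg replicate 2). With a replicate block 759 genes and 5 members were called. Between libraries with the same replicate number, correlations of deviations over genes were -0.0029 to 0.041 in the cell-type and 0.0056 to 0.22 in the Smad table. The highest was that of control with sgSmad2. With 2 libraries in a group, both replicates give the same value. These values do not settle whether replicate numbers pair libraries, and the main fits did not use the numbers.

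In the Smad experiment 0 of 408 alternative member values passed the threshold (lowest limma adjusted p 0.17). The replicate block called 0 genes there. Genes called rose from 0 to 185, 178 and 178 (sgSmad2, sgSmad3, sgSmad2/3) with a pseudocount of 0.1 CPM, to 175, 158 and 164 without the trend, and to 5 for sgSmad2/3 with TMM scaling. The cause was not tested. Uncalled values that changed sign with a library left out ran as follows. For sgSmad2 they were -0.069 to 0.34 (Slfn2), -0.42 to 0.32 (Slfn3), -0.11 to 0.60 (Slfn5), -0.079 to 0.13 (Slfn8) and -0.46 to 0.34 (Slfn9). For sgSmad3 they were -0.24 to 0.21 (Slfn2) and -0.15 to 0.25 (Slfn9). For sgSmad2/3 they were -0.10 to 0.30 (Slfn2), -0.00086 to 0.16 (Slfn8) and -0.34 to 0.064 (Slfn9). For the Smad3 guide they were -0.14 to 0.092 (Slfn2) and -0.21 to 0.18 (Slfn9). For the departure they were -0.43 to 0.43 (Slfn1), -0.25 to 0.21 (Slfn2), -0.72 to 0.084 (Slfn3), -0.42 to 0.29 (Slfn5) and -0.52 to 0.27 (Slfn9), with Slfn2 at 0.0029 under TMM and 0.033 under quantile scaling. Few reads limit Slfn3 and, in naive cells, Slfn9.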
